A study of Mus musculus with 12 samples.

Results

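The genes described here encode secreted and cell surface metalloproteases and their inhibitors: the matrix metalloproteases (Mmp), the ADAM and ADAMTS proteases and the tissue inhibitors of metalloproteases (Timp). They were taken by symbol, as every gene whose annotated name starts with Mmp, Adam, Adamts or Timp followed by a digit, without Adam17. Of the 18194 genes that the array measured through a probe set with a single gene symbol, 64 were members, with 18 Mmp, 27 Adam, 15 Adamts and 4 Timp genes. Transcript levels were measured on 12 Affymetrix mouse expression arrays in A2C12, a lung tumour line derived from a mouse carrying both a c-myc and a c-raf transgene, on the background strain C57BL/6. All 4 groups were cells of this same line, so the line is a single source and its transgenes were present in controls too. The groups were side population (SP) cells treated with anti-EpCAM, non-SP cells treated with anti-EpCAM, untreated SP cells and untreated non-SP cells, with 3 biological replicates each. SP cells are those that retain little of the dye Hoechst, which transporters in their membrane pump out. EpCAM is an adhesion protein of epithelial cells, and the monoclonal antibody against it was given at 100 µg/ml for 48 h before staining and sorting, while the untreated groups are labelled as having received none, and no control antibody is named. The labels do not name the promoters that drive the transgenes.

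Matrix metalloproteases are made as inactive precursors and cut collagens, proteoglycans and other matrix proteins once their prodomain is removed. ADAM proteases sit in the membrane and release the outer parts of growth factors, receptors and adhesion proteins, a step called shedding, while ADAMTS proteases are secreted and act on proteoglycans, procollagens and microfibril proteins. Timps bind the active site of these enzymes and block it, and in tumours the balance of proteases and Timps governs how matrix is broken down around the cells.

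Values are on the log2 scale, so that 1 unit is a doubling of signal. Probe sets differ in how strongly they bind, so values of different genes were not read as relative transcript amounts, and a low signal was not read as absence. The array medians lay between 5.72 and 6.06. The labels do not say which arrays came from the same culture. Across all genes, the SP and non-SP arrays of the same replicate number and treatment deviated together from their group means (correlations from 0.55 to 0.84), and such a pair is called a culture below. Whether a pair shared a culture, a day of sorting or a day of array processing cannot be told apart here. Spread between cultures is thus spread between such pairs. Both arrays of anti-EpCAM culture 2 stood apart. The 3′ probe set of actin exceeded the 5′ probe set by 1.03 units on the SP array and by 0.895 units on the non-SP array, against 0.183 to 0.733 units on the other 10 arrays. The mean correlation of these 2 arrays with the other arrays was 0.985 and 0.982, against 0.987 to 0.990. As a check of the labelled cell type, 3 of 6 epithelial markers (Epcam, Krt8 and Krt19) had a mean signal at or above the median of the means of all genes (7.02), as did 2 of 5 measured markers of alveolar type II cells (Sftpb and Abca3), 6 of 8 of fibroblasts, 3 of 7 of macrophages, 1 of 4 of neutrophils and 0 of 5 of endothelial cells. Fewer cells of a type and less RNA per cell cannot be told apart on such arrays.

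Of the 64 members, 17 had a mean signal over the 12 arrays at or above that median and are called higher-signal members. These were 6 of 18 Mmp, 4 of 27 Adam, 4 of 15 Adamts and 3 of 4 Timp genes. No member passed the test in any of the 5 comparisons below, and Mmp13 and Mmp10, the members with the widest range across arrays, had high and low values inside every group.

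**Figure D1:**
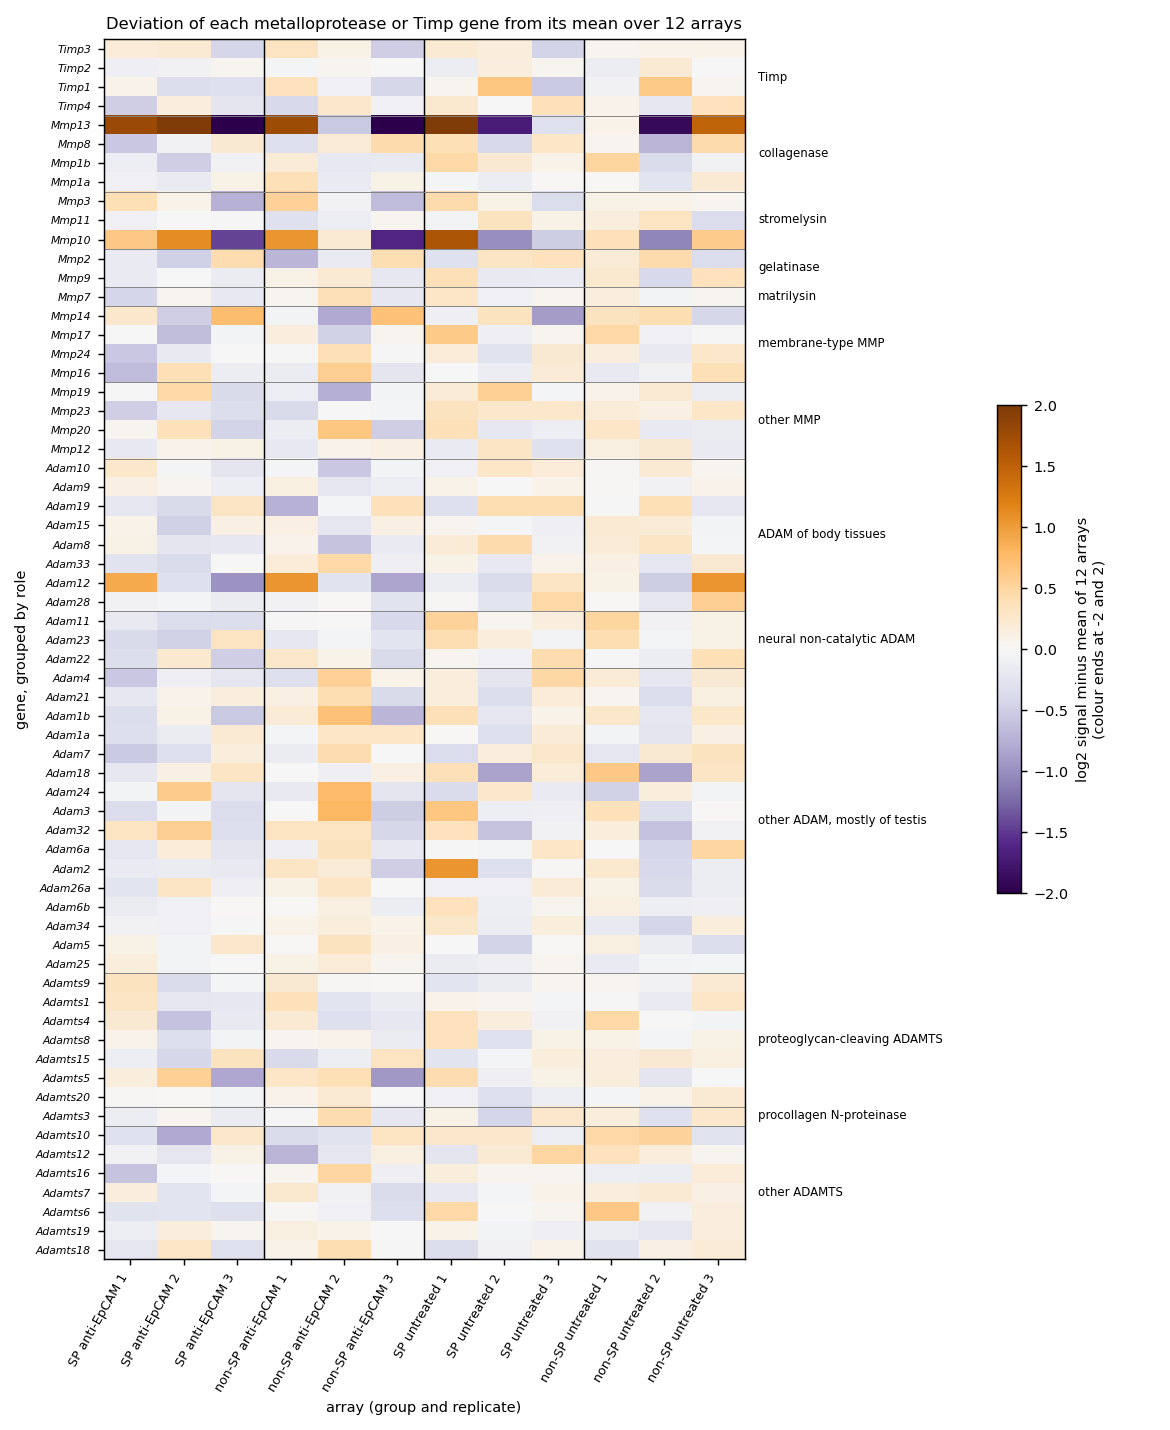
Deviation of each of the 64 genes from its own mean over 12 arrays, in log2 units by colour, with genes in rows grouped by role and arrays in columns by group and replicate number. Mmp13 and Mmp10 show the strongest colours, which change between replicates inside every group.

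The 4 inhibitors differed in how much they varied across arrays on the probe sets that stood for them. Timp2, which inhibits most Mmps and also takes part in the activation of pro-Mmp2 on the cell surface, had 12.88, 12.91 and 13.02 on the SP anti-EpCAM arrays and 12.94, 13.02 and 12.96 on the non-SP anti-EpCAM arrays. Its untreated values were 12.84, 13.12 and 13.01 in SP cells and 12.85, 13.18 and 12.97 in non-SP cells. On this probe set the whole range of Timp2 was therefore 0.34 units, or 1.27-fold, with overlapping groups. Its SD over the 12 arrays (0.10) was the lowest of all 64 members. The other probe sets of Timp2 varied more, with SDs of 0.21, 0.30, 0.23, 0.45 and 0.31. Their means were 12.75, 10.96, 9.12, 7.13 and 4.28.

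Timp3, a matrix-bound inhibitor that also acts on ADAM proteases, had 13.31, 13.33 and 12.70 on the SP anti-EpCAM arrays and 13.45, 13.22 and 12.63 on the non-SP anti-EpCAM arrays. In untreated cells it had 13.34, 13.29 and 12.68 on the SP arrays and 13.17, 13.19 and 13.21 on the non-SP arrays. The low values were those of both arrays of anti-EpCAM culture 3 and of the SP array of untreated culture 3. The other 3 probe sets of Timp3 had means of 13.12, 11.67 and 9.62.

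Timp1, a secreted inhibitor that many cells induce on stimulation, had 11.65, 11.24 and 11.27 on the SP anti-EpCAM arrays and 11.93, 11.49 and 11.16 on the non-SP anti-EpCAM arrays. In untreated cells it had 11.61, 12.23 and 11.04 on the SP arrays and 11.51, 12.20 and 11.61 on the non-SP arrays. Both arrays of untreated culture 2 were the highest, and the groups overlapped. Timp4 was the inhibitor with a mean signal below the median of all genes. It had 5.31, 5.95 and 5.55 on the SP anti-EpCAM arrays and 5.40, 6.07 and 5.71 on the non-SP anti-EpCAM arrays, and in untreated cells 6.04, 5.80 and 6.17 on the SP arrays and 5.86, 5.58 and 6.15 on the non-SP arrays.

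**Figure D2:**
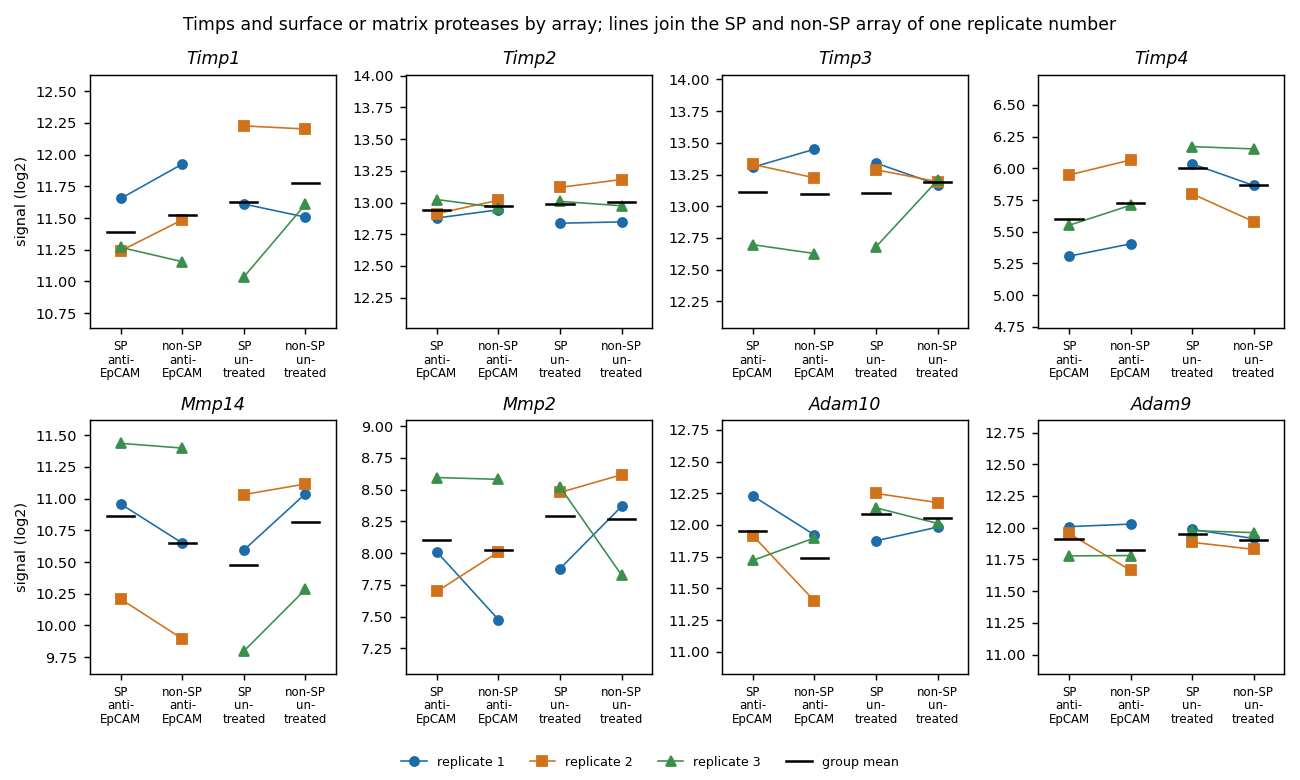
Signal (log2) of the 4 Timp genes and of Mmp14, Mmp2, Adam10 and Adam9 on each array, in panels that each span 2 units. Symbols are replicates, lines join the SP array to the non-SP array with the same number and treatment, and black bars are group means (n = 3 each). On the probe sets shown, Timp2 spans 0.34 units, while Mmp14 spans 1.64 units with all groups overlapping.

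The collagenase, stromelysin and matrilysin genes hold a run of neighbours on mouse chromosome 9. In the RefSeq annotation of GRCm38.p6, 10 protein-coding genes stand next to each other there (Mmp13, Mmp12, Mmp1b, Mmp3, Mmp1a, Mmp10, Mmp8, Mmp27, Mmp20 and Mmp7), and 9 of them are members, while Mmp27 was not analysed here. Mmp13 is the main collagenase of the mouse, and it had by far the widest range of the members. On the SP anti-EpCAM arrays it had 8.72, 9.41 and 4.18, and on the non-SP anti-EpCAM arrays 8.70, 6.41 and 4.51. On the SP untreated arrays it had 8.98, 5.22 and 6.66, and on the non-SP untreated arrays 7.03, 5.05 and 8.42. High and low values occurred in every group, and the lowest and highest array differed 37.4-fold. The group means of Mmp13 were 7.44 ± 2.84 in SP and 6.54 ± 2.10 in non-SP cells after anti-EpCAM, and 6.95 ± 1.89 in SP and 6.83 ± 1.70 in untreated non-SP cells (SD, n = 3 each).

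Mmp10, stromelysin 2, which cleaves several matrix proteins and other pro-Mmps, had the second widest range. It had 8.29, 8.77 and 6.21 on the SP anti-EpCAM arrays and 8.72, 7.87 and 6.05 on the non-SP anti-EpCAM arrays. In untreated cells it had 9.29, 6.66 and 7.16 on the SP arrays and 8.03, 6.60 and 8.27 on the non-SP arrays. Culture means of Mmp13 were 8.71, 7.91 and 4.35 in anti-EpCAM cultures 1 to 3 and 8.0, 5.13 and 7.54 in untreated cultures 1 to 3. Those of Mmp10 were 8.50, 8.32 and 6.13 after anti-EpCAM and 8.66, 6.63 and 7.71 in untreated cultures. Anti-EpCAM culture 3 and untreated culture 2 were thus the lowest for both genes. No correlation is given, since the Mmp13 means fell into a cluster of 4 cultures and a cluster of 2.

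The difference between the fractions of one culture was also wide for these genes. SP minus non-SP for Mmp13 was 0.02, 3.00 and -0.33 in anti-EpCAM cultures 1 to 3 and 1.95, 0.18 and -1.76 in untreated cultures 1 to 3. For Mmp10 it was -0.43, 0.90 and 0.16 after anti-EpCAM and 1.26, 0.06 and -1.11 in untreated cultures. The largest positive Mmp13 difference was in the culture whose arrays stood apart, and the sign was mixed under both treatments.

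Mmp3, stromelysin 1, had 9.38, 9.07 and 8.24 on the SP anti-EpCAM arrays and 9.53, 8.92 and 8.34 on the non-SP anti-EpCAM arrays, and 9.43, 9.09 and 8.63 in SP and 9.09, 9.07 and 9.02 in non-SP untreated cells. Its lowest culture was also anti-EpCAM culture 3, but its range was 1.29 units against 5.22 units for Mmp13. Mmp8, the collagenase of neutrophils, had 4.98 in SP and 5.19 in non-SP cells of anti-EpCAM culture 3 and 4.36 in SP and 4.05 in non-SP cells of untreated culture 2, within a range from 4.05 to 5.20. Mmp1a and Mmp1b, the mouse relatives of human MMP1, had mean signals of 3.22 and 3.66. Mmp12 (macrophage elastase), Mmp20 (an enamel protease) and Mmp7 (matrilysin) had means of 3.40, 4.24 and 6.02.

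Neutrophil markers also varied between cultures. Of 5 neutrophil markers 4 were measured, of which S100a8 lay above the median of all genes. Their summed signal was 7.34 to 8.98 in SP and 7.42 to 9.19 in non-SP cells after anti-EpCAM, and 7.97 to 8.97 in SP and 8.20 to 8.84 in non-SP untreated cells. By culture it was 9.09, 8.55 and 7.38 after anti-EpCAM and 8.68, 8.29 and 8.40 in untreated cultures, lowest in anti-EpCAM culture 3 and next lowest in untreated culture 2. The summed signal of the epithelial markers was lowest in the same cultures. All 6 were measured, and their summed signal was 11.80 to 12.12 in SP and 11.70 to 12.41 in non-SP cells after anti-EpCAM, and 11.78 to 12.66 in SP and 11.73 to 12.40 in non-SP untreated cells. By culture it was 12.26, 12.22 and 11.75 after anti-EpCAM and 12.53, 11.76 and 11.94 in untreated cultures. Single markers differed from this sum. Epcam had 8.22 in SP and 8.28 in non-SP cells of anti-EpCAM culture 3, above its mean of 8.11. It was lowest in anti-EpCAM culture 2, with 7.80 and 7.92. Cdh1 had 6.14 and 6.16 in anti-EpCAM culture 3, below its mean of 6.35. The summed signal of the fibroblast markers, given with Mmp14 below, was highest in anti-EpCAM culture 3 and untreated culture 2. The part of any of these marker lists in the Mmp13 and Mmp10 values was not tested.

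**Figure D3:**
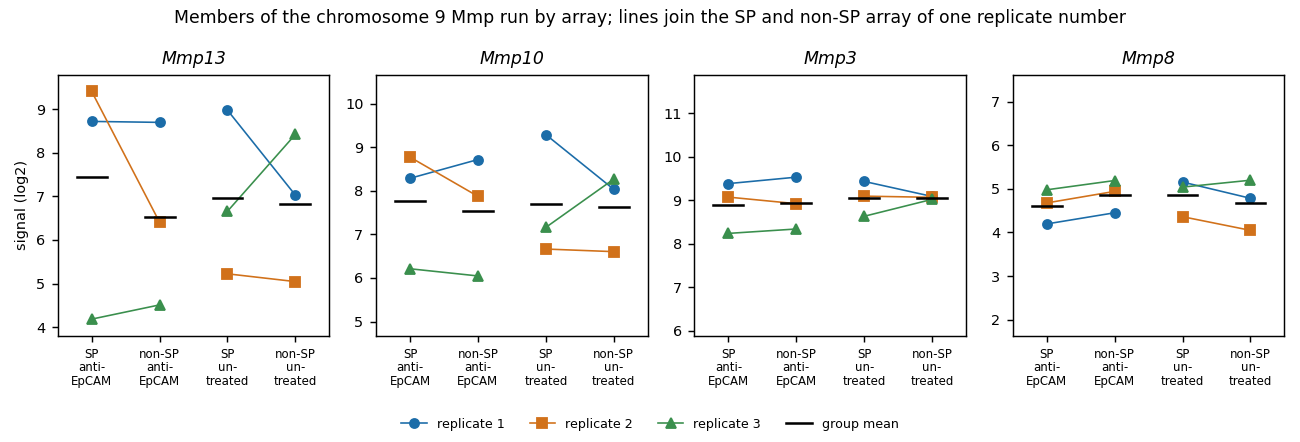
Signal (log2) of Mmp13, Mmp10, Mmp3 and Mmp8 on each array, in panels that each span 6 units. Symbols are replicates, lines join the SP array to the non-SP array with the same number and treatment, and black bars are group means (n = 3 each). Mmp13 and Mmp10 are lowest in anti-EpCAM replicate 3 and untreated replicate 2, and their SP to non-SP lines run both up and down.

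The stretches just upstream of the start sites of Mmp13 and Mmp10 are shown with those of Mmp3 and Mmp8 from the same run. Each is the 120 bases before the RefSeq start, on the plus strand of GRCm38.p6, with matches to TGANTCA in capitals. TGANTCA is a loose form of the motif of AP-1, the Fos and Jun dimer known to drive several Mmp genes. It allows any base in the middle.
Mmp13, chr9:7272394-7272513: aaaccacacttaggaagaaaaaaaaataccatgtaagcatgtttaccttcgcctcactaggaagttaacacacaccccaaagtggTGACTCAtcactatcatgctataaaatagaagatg
Mmp10, chr9:7502222-7502341: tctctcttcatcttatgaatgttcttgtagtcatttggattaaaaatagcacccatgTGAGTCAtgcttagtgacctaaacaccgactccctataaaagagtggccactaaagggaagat
Mmp3, chr9:7445702-7445821: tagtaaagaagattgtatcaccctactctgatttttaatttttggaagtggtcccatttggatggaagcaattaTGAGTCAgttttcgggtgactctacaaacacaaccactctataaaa
Mmp8, chr9:7558309-7558428: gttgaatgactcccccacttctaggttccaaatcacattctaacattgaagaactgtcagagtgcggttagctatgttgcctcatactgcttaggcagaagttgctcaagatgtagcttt
The match begins at base -35 from the start in Mmp13, at -63 in Mmp10 and at -46 in Mmp3, and the Mmp8 window has none.

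Promoter sequences from 250 bases before to 50 bases after the start were available for 36 of the 64 members. TGANTCA reads the same on both strands. It occurred in 11 of the 36 (30.6%), against 8.97% of all 27025 genes with such a sequence. These were 8 of the 9 members of the chromosome 9 run, without Mmp8, and 3 of the 27 others (Adam19, Adam1b and Adam25). In the run the Mmp20 match was TGAATCA, and the other matches had C or G in the middle. TATAAA, searched on the strand of the gene only, occurred in the same 8 members of the run and in 1 of the 27 others (Adamts1), against 9.77% of all genes. A TATAAA and a TGANTCA match cannot overlap. A match is a match of letters and no test of binding. In anti-EpCAM culture 3, Fos had 12.08 in SP and 12.04 in non-SP cells, and Jun 11.64 and 11.66. For untreated culture 2 the values were 11.24 and 11.21 for Fos and 11.58 and 11.66 for Jun. Over the 12 arrays Fos ranged from 11.21 to 12.50 and Jun from 11.04 to 12.05. The part of AP-1 in the Mmp13 and Mmp10 values was not tested.

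Among the gelatinases, Mmp2 had 8.01, 7.70 and 8.60 on the SP anti-EpCAM arrays and 7.48, 8.01 and 8.58 on the non-SP anti-EpCAM arrays. In untreated cells it had 7.88, 8.48 and 8.52 on the SP arrays and 8.37, 8.62 and 7.83 on the non-SP arrays, so that the groups overlapped. Mmp9, which cleaves denatured collagen and is made by many leukocytes, had a mean of 6.32 and ranged from 5.93 to 6.70. Mmp11 (stromelysin 3) had signals from 7.75 to 8.43 and Mmp19, a Mmp found in many tissues, from 7.06 to 8.37.

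Mmp14, the membrane-type protease that cuts collagen at the cell surface and activates pro-Mmp2, was the Mmp with the strongest signal. It had 10.96, 10.21 and 11.44 on the SP anti-EpCAM arrays and 10.65, 9.89 and 11.40 on the non-SP anti-EpCAM arrays. In untreated cells it had 10.60, 11.03 and 9.80 on the SP arrays and 11.04, 11.12 and 10.28 on the non-SP arrays. Its SD was 0.55 between cultures and 0.23 within a culture, with culture means from 10.04 (untreated culture 3) to 11.42 (anti-EpCAM culture 3). The other membrane-type members Mmp17, Mmp24 and Mmp16 had mean signals of 6.63, 6.34 and 4.93. Fibroblast markers also varied between cultures. All 8 were measured, and 6 lay above the median of all genes (Col1a1, Col1a2, Col3a1, Pdgfra, Pdgfrb and Dcn). Their summed signal was 13.52 to 14.33 in SP and 13.94 to 14.29 in non-SP cells after anti-EpCAM, and 13.68 to 14.48 in SP and 13.96 to 14.57 in non-SP untreated cells. By culture it was 14.08, 13.73 and 14.31 after anti-EpCAM and 13.89, 14.52 and 13.97 in untreated cultures, and its part in the Mmp14 values was not tested.

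Of the 8 Adam genes of body tissues, 4 were higher-signal members. Adam10, the sheddase of Notch receptors and cadherins, had 12.23, 11.92 and 11.72 on the SP anti-EpCAM arrays and 11.92, 11.40 and 11.90 on the non-SP anti-EpCAM arrays. In untreated cells it had 11.88, 12.25 and 12.14 on the SP arrays and 11.98, 12.18 and 12.01 on the non-SP arrays. The non-SP anti-EpCAM arrays lay just below the non-SP untreated arrays, the lowest being the non-SP array of anti-EpCAM culture 2. Adam9, another membrane sheddase, stayed between 11.66 and 12.03. Adam19, which is known to release neuregulin, ranged from 9.81 to 10.96, and Adam15, a disintegrin that binds integrins, from 9.09 to 9.78.

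Adam12, a protease of muscle, placenta and stromal cells that also cleaves insulin-like growth factor binding proteins, had the third highest SD of the members (0.70) behind Mmp13 and Mmp10. It had 7.07, 5.85 and 5.20 on the SP anti-EpCAM arrays and 7.21, 5.88 and 5.33 on the non-SP anti-EpCAM arrays, and 6.03, 5.80 and 6.46 in SP and 6.27, 5.65 and 7.21 in non-SP untreated cells. Within anti-EpCAM cells the fractions of each culture lay within 0.15 units of each other while the cultures spanned 5.26 to 7.14. In untreated cultures SP minus non-SP was -0.24, 0.14 and -0.75. The other probe set of Adam12 had a mean of 4.55 and an SD of 0.33. After anti-EpCAM that probe set had 4.63, 4.43 and 4.37 in SP and 4.96, 4.94 and 4.27 in non-SP cells. Adam8 and Adam33 had mean signals of 6.64 and 6.52, and Adam28 of 5.10. Adam11, Adam22 and Adam23, which lack protease activity and are best known from nerve cells, had means between 5.16 and 6.29. The remaining 16 Adam genes, most of them known from testis and sperm, had means between 2.78 (Adam25) and 6.46 (Adam4), all below the median of all genes.

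Of the proteoglycan-cleaving Adamts genes, Adamts9, Adamts1 and Adamts4 were higher-signal members. Adamts9 ranged from 8.79 to 9.50, Adamts1 from 8.89 to 9.51 and Adamts4 from 7.54 to 8.60. Adamts5, the main aggrecan-cutting protease of mouse cartilage, had a mean of 5.15 and an SD of 0.47. Its values were 5.31, 5.70 and 4.32 in SP and 5.43, 5.54 and 4.22 in non-SP anti-EpCAM cells, and 5.58, 5.05 and 5.25 in SP and 5.32, 4.90 and 5.15 in non-SP untreated cells. Both arrays of anti-EpCAM culture 3, the culture with the lowest Mmp13, were the lowest for this probe set of Adamts5. Its next probe sets by signal were lowest on the SP arrays of anti-EpCAM culture 1 (4.70) and untreated culture 2 (4.29). The last, with a mean of 2.92, was lowest on the non-SP array of anti-EpCAM culture 3. Adamts10, which acts on fibrillin microfibrils, was the only other higher-signal Adamts gene, from 6.55 to 7.87. Adamts8, Adamts15 and Adamts20 had means of 5.94, 5.57 and 2.86, the procollagen protease Adamts3 had 3.38, and the other 6 Adamts genes had means between 3.68 and 6.94.

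The spread between cultures was also set against that of all genes. The median SD of the 6 culture means was 0.263 units for the members and 0.236 for all genes, and the median SD within a culture was 0.168 and 0.150. The spread between cultures exceeded that within a culture in 52 of 64 members (81.25%), against 80.7% of all genes. Mmp13 was the third most variable of 18194 genes between cultures (SD 1.76) and the most variable within a culture (SD 1.16), while Mmp10 ranked 22 (SD 1.05) and 65 (SD 0.56). Adam12 ranked 128 and Mmp14 395 between cultures. These ranks describe how the members vary and are no test.

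**Figure D4:**
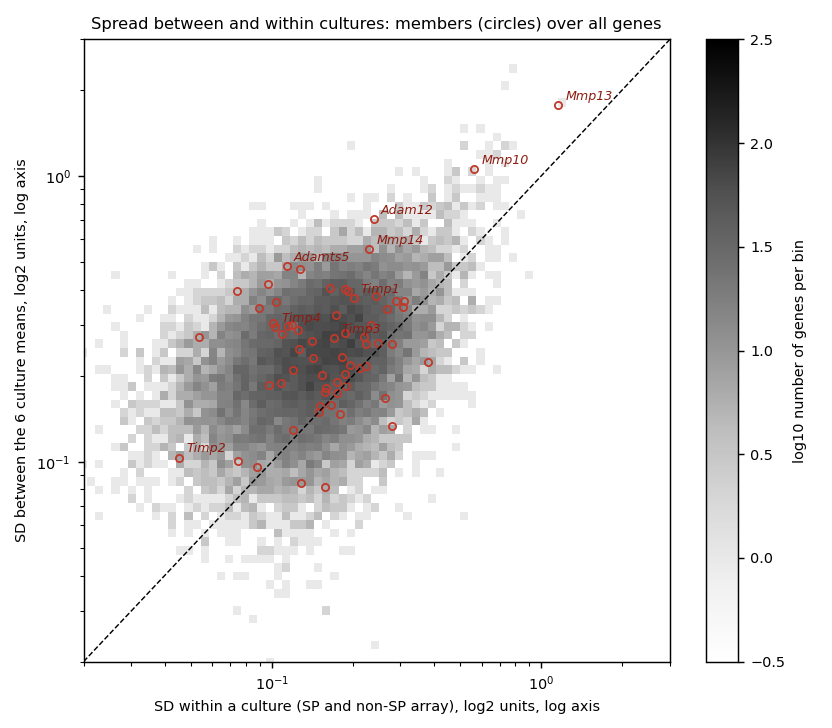
SD of the SP and non-SP array within a culture (horizontal) against the SD of the 6 culture means (vertical), both in log2 units on log axes, with members as circles over all 18194 genes in grey bins. The dashed line marks equal spread. Mmp13 (1.16 within, 1.76 between) lies at the far upper right and Timp2, on the probe set that stood for it, at the lower left.

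The first comparison asks how dye-excluding cells differ from the others in untreated cultures. Differences were tested with limma across all 18194 genes, and p-values were adjusted by Benjamini and Hochberg over all of them with a threshold of 0.05. In untreated cells no member and 0% of all genes passed, the lowest adjusted p among members being 1. At an unadjusted p under 0.05 there were 0 members, against 0.022% of all genes. The member median of the SP minus non-SP difference was 0.02, beside 0.01 over all genes, with 34 of 64 members above the latter value. The 95% interval excluded a 2-fold change either way for 59 of 64 members, against 96.5% of all genes.

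By moderated t, the highest among the higher-signal members were Mmp19 (8.05 ± 0.30 in SP, 7.87 ± 0.17 in non-SP cells, difference 0.19 ± 0.25 SE), Mmp11 (8.22 ± 0.20 in SP, 8.13 ± 0.34 in non-SP, difference 0.09) and Adam19 (difference 0.12). The lowest were Adamts9 with 9.04 ± 0.15 in SP and 9.22 ± 0.14 in non-SP cells (difference -0.18 ± 0.19 SE), Mmp14 with 10.48 ± 0.63 in SP and 10.81 ± 0.46 in non-SP cells (difference -0.34 ± 0.42 SE) and Adam15 (difference -0.14). Here and below, ± after a group mean is the SD over 3 arrays. Among the lower-signal members the ends were Adam34 (difference 0.25) and Adamts20 (difference -0.25). None of these differences passed the test. No member had all SP arrays above all non-SP arrays (1.24% of all genes did), and 2 members, Adamts20 and Adamts7, had all below (1.13% of all genes).

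Within cultures, SP lay above non-SP in 3 of 3 untreated cultures for 8 members (13.5% of all genes) and below in 7 members (10.3% of all genes). The 8 were Adam9, Mmp19, Timp4, Adamts5, Adam11, Adam2, Adam21 and Adam22, and the 7 were Mmp14, Adam15, Adamts9, Adamts7, Adamts18, Adamts20 and Adam7. With the culture as a replicate block in the fit, which removes the spread between cultures, no member passed the adjusted threshold. At an unadjusted p under 0.05 there were then 3 members (Mmp14, Adam34 and Adamts20), against 1.68% of all genes. The blocked unadjusted p of Mmp14 was 0.0168 and its adjusted p 1.00. Without the SP array of untreated culture 3, whose non-SP partner was low too, the Mmp14 difference was 0.00, while SP minus non-SP within untreated cultures 1 to 3 was -0.44, -0.08 and -0.49.

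The second comparison makes the same contrast after anti-EpCAM. Again no member and 0% of all genes passed in limma, with a lowest adjusted p among members of 1.00, and 0 members had an unadjusted p under 0.05, against 0.698% of all genes. The member median was -0.09, beside -0.03 over all genes, with 22 of 64 members above the latter. For 59 of 64 members the interval lay inside a 2-fold change, against 93.4% of all genes.

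Mmp19 had 7.83 ± 0.42 in SP and 7.50 ± 0.39 in non-SP cells (difference 0.33 ± 0.25 SE), and without both arrays of culture 2 the difference was -0.11. Its other probe set, with a mean of 6.84, gave 0.02. Adam10 had 11.96 ± 0.26 in SP and 11.74 ± 0.29 in non-SP cells (difference 0.21 ± 0.19 SE), although its next 2 probe sets by signal gave -0.02 and -0.08. Adam9 followed with a difference of 0.09, which was -0.01 without culture 2. At the low end were Adamts9 (difference -0.11), Adamts10 (-0.17) and Adam15 (-0.09). The other probe sets of Adamts9 gave -0.24 and 0.47, and that of Adamts10 gave 0.11. Among lower-signal members the ends were Adamts12, a protease of cartilage matrix, with a difference of 0.20, and Adam33 with 6.31 ± 0.19 in SP and 6.71 ± 0.28 in non-SP cells (difference -0.40 ± 0.19 SE, interval -0.81 to 0.01). Without culture 2 the difference was 0.06 for Adam10, 0.03 for Adamts9, 0.02 for Adamts10, -0.01 for Adam15, 0.30 for Adamts12 and -0.19 for Adam33. No member had all SP arrays above (0.572% of all genes did), and 1, Adam34, had all below (1.78% of all genes).

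SP lay above non-SP in 3 of 3 anti-EpCAM cultures for 1 member, Mmp14 (6.56% of all genes), and below in 11 members (11.1% of all genes), which were Timp4, Adam12, Mmp8, Mmp17, Mmp23, Adamts18, Adamts20, Adam1a, Adam4, Adam6a and Adam34. With the replicate block, 7 members had an unadjusted p under 0.05 (Mmp7, Mmp24, Adam33, Adam4, Adam1a, Adamts16 and Adamts18), all lower in SP, against 7.21% of all genes in either direction. None passed the adjusted threshold. Their number was 3 when both arrays of culture 2 were left out of the blocked fit, for which the share of all genes is not given.

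The next pair of comparisons sets anti-EpCAM cells against untreated cells of the same fraction, with no arrays shared between the 2, although each uses arrays of both fraction comparisons. In non-SP cells no member and 0% of all genes passed, with a lowest adjusted p among members of 0.988 in limma. There was 1 member at an unadjusted p under 0.05 (Mmp23), against 3.22% of all genes. The member median was -0.05, beside -0.10 over all genes, with 40 of 64 members above the latter. Intervals lay inside a 2-fold change for 60 of 64 members, against 90.3% of all genes. Centring each array on its median moved the median of all genes to 0.05, so the signs of small differences depend on the scaling.

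Adam10 had 11.74 ± 0.29 in anti-EpCAM and 12.06 ± 0.10 in untreated non-SP cells (difference -0.32 ± 0.19 SE), and its next 2 probe sets gave -0.14 and -0.07. Mmp19 had 7.50 ± 0.39 after anti-EpCAM and 7.87 ± 0.17 in untreated cells (difference -0.36 ± 0.25 SE), and Adamts10 a difference of -0.34 ± 0.29 SE. The other probe set of Mmp19 gave -0.12. The high end of the higher-signal members was close to 0, with Adamts9 at 0.03, Timp2 at -0.03 and Mmp10 at -0.09, the latter with an interval from -1.89 to 1.71. The other probe sets of Adamts9 gave 0.03 and -0.60, and that of Adamts10 gave -0.02. With arrays centred on their medians Timp2 was at 0.13, Mmp10 at 0.06, Adamts9 at 0.18, Adam10 at -0.16, Mmp19 at -0.21 and Adamts10 at -0.19. Without anti-EpCAM culture 2 Adam10 was at -0.15, Mmp19 at -0.14, Mmp10 at -0.25, Timp2 at -0.05 and Adamts9 at 0.06. Among lower-signal members Adam34 gave 0.26. Mmp23, a membrane-anchored Mmp, had 5.95, 6.33 and 6.29 in anti-EpCAM cells and 6.51, 6.45 and 6.62 in untreated cells (difference -0.34 ± 0.15 SE, or -0.19 with arrays centred). All anti-EpCAM arrays lay above all untreated arrays for 1 member, Adam25 (1.19% of all genes), and below for 3, Adam10, Adam23 and Mmp23 (6.62% of all genes).

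In SP cells no member and 0% of all genes passed. In limma the lowest adjusted p among members was 0.794, for Mmp23. It had 5.84, 6.11 and 5.99 in anti-EpCAM SP cells and 6.67, 6.58 and 6.59 in untreated SP cells, so the groups did not overlap. The difference was -0.63 ± 0.15 SE (95% interval -0.96 to -0.30), with an unadjusted p of 0.00113 in limma. Its other probe set, with a mean of 5.73, gave -0.12 in SP and -0.09 in non-SP cells. Adam11, Adamts6 and Mmp1b were the other members at an unadjusted p under 0.05, with differences of -0.53, -0.44 and -0.49. Thus 4 of 64 members stood at that level, against 4.59% of all genes.

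The SP member median was -0.16, beside -0.12 over all genes, with 27 of 64 members above the latter. Intervals lay inside a 2-fold change for 56 of 64 members, against 90.5% of all genes. Mmp14 had 10.87 ± 0.62 in anti-EpCAM and 10.48 ± 0.63 in untreated SP cells (difference 0.39 ± 0.42 SE). Its other probe sets, with means of 9.72 and 6.92, gave -0.19 and 0.02. Adamts9 gave 0.10 and Mmp10 0.05, the latter with an interval from -1.75 to 1.85. The other probe sets of Adamts9 gave -0.10 and 0.47. At the low end Adamts4 had 7.95 ± 0.42 in anti-EpCAM and 8.28 ± 0.21 in untreated cells (difference -0.33 ± 0.23 SE), Adamts10 gave -0.41 ± 0.29 SE and Adam19 -0.27 ± 0.30 SE. The other probe set of Adamts4, with a mean of 7.36, gave 0.12, and that of Adamts10, with a mean of 5.73, also 0.12. Adam5, a testis ADAM, gave 0.25 at the high end of the lower-signal members. Without anti-EpCAM culture 2 the differences were 0.72 for Mmp14, 0.27 for Adamts9, -0.46 for Mmp10, -0.12 for Adamts4, -0.14 for Adamts10 and -0.13 for Adam19. All anti-EpCAM arrays lay above all untreated arrays for 1 member, Adamts20 (0.434% of all genes), and below for 5, Mmp23, Mmp1b, Adam11, Adamts6 and Adamts16 (8.04% of all genes).

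**Figure D5:**
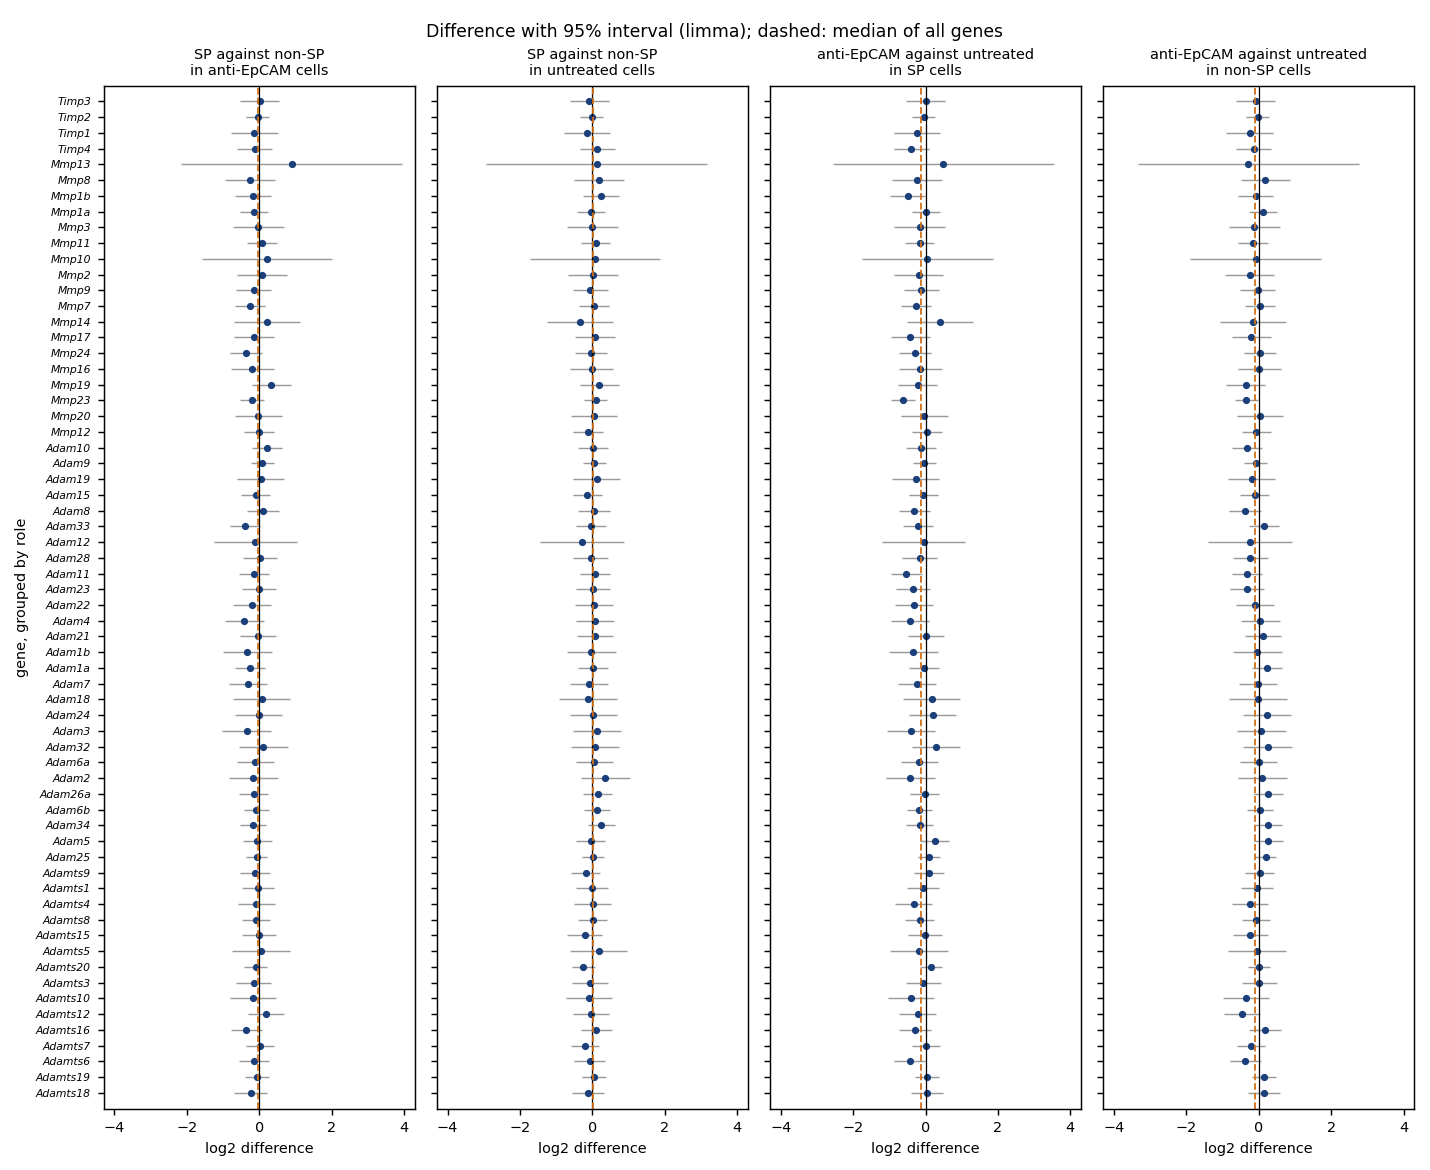
Log2 difference of each of the 64 genes in 4 comparisons, with 95% intervals from limma, rows grouped by role and the median of all genes dashed. The widest intervals are those of Mmp13 and Mmp10, and the interval of Mmp23 in SP cells (-0.96 to -0.30) excludes 0 although no gene passed after adjustment.

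The last comparison asks whether the SP to non-SP difference depends on the antibody. No member and 0% of all genes passed the interaction in limma, and 0 members had an unadjusted p under 0.05, against 0.236% of all genes. The member median was -0.08, beside -0.03 over all genes. Intervals lay inside a 2-fold change for 48 of 64 members, against 71.9% of all genes. Mmp14 stood highest among the higher-signal members, with an interaction of 0.56 ± 0.60 SE (interval -0.73 to 1.85). SP minus non-SP for Mmp14 was 0.31, 0.31 and 0.04 in anti-EpCAM cultures 1 to 3 and -0.44, -0.08 and -0.49 in untreated cultures 1 to 3, thus positive in all of the first and negative in all of the second. Timp4 had the opposite pattern, with -0.10, -0.12 and -0.16 after anti-EpCAM and 0.17, 0.22 and 0.02 in untreated cultures. These were the 2 members of opposite sign in all cultures (2.74% of all genes). The other probe set of Timp4, with a mean of 3.45, gave an interaction of -0.23 and was of mixed sign over the anti-EpCAM cultures.

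With the replicate block the interaction of Mmp14 had an unadjusted p of 0.00781 and an adjusted p of 0.767 in limma. There were then 4 members at an unadjusted p under 0.05 (Mmp14, Mmp8, Adam4 and Adam34), against 5.51% of all genes, and none passed after adjustment. The other 2 probe sets of Mmp14 gave interactions of 0.04 and 0.32. In both, SP minus non-SP was of mixed sign over the anti-EpCAM cultures. Adam10 and Mmp19 followed with 0.19 and 0.14. At the low end were Adamts4 (-0.09), Adam19 (-0.08) and Adamts10 (-0.07). The other probe set of Mmp19 gave -0.14, that of Adamts4 gave 0.59 and that of Adamts10 gave 0.14. The next 2 probe sets of Adam10 by signal gave -0.29 and -0.38. Without anti-EpCAM culture 2 Adam10 was at 0.04, Mmp19 at -0.30, Adamts4 at 0.02, Adam19 at 0.11 and Adamts10 at 0.12. Among lower-signal members Adamts7 gave 0.23 and Adam34 gave -0.42.

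Genes around the proteases were read from 5 further lists. Of 27 activators and inhibitors other than Timps 25 were measured, of 17 related metalloproteases and ADAMTS-like genes 17, of 20 matrix substrates 19, of 24 shed surface substrates 22, and of 15 transcription factors of protease genes 12. In none of the 5 lists did a gene pass the adjusted threshold in any of the 5 comparisons. Their medians lay between -0.15 and 0.06. For the activators and inhibitors the medians in SP against non-SP were -0.09 after anti-EpCAM and -0.04 in untreated cells, beside -0.03 and 0.01 over all genes. For anti-EpCAM against untreated they were -0.10 in SP and -0.06 in non-SP cells, beside -0.12 and -0.10. In SP cells 2 of the 25 had an unadjusted p under 0.05, against 4.59% of all genes in that comparison: A2m, the plasma protease inhibitor alpha-2-macroglobulin (difference -0.58 ± 0.21 SE), and Pcsk5, a proprotein convertase (difference -0.66 ± 0.30 SE). Lcn2, whose human counterpart binds MMP9, had 8.08, 6.20 and 6.02 in SP and 7.57, 6.49 and 8.35 in non-SP untreated cells. Its difference of -0.70 ± 1.01 SE came mainly from culture 3, and the sign differed between cultures.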

How the data were processed

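The authors deposited log2 signals of 45101 probe sets on 12 arrays, summarised by RMA per the submitters' processing notes; the sources used here give no software or version for it. Per the labels' protocols, Hoechst was at 5 µg/ml for 90 min, with or without reserpine at 50 µmol/l, and 200 ng of RNA was labelled. No columns lacked a sample, and values ran from 2.28 to 14.7. The number of arrays limits precision: the median 95% interval of a member reached 0.48 log2 units to either side, and 0.68 for the interaction.

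By the platform annotation of 2016, 34958 probe sets had 1 gene symbol, 932 several and 9211 none. The probe set with the highest mean over 12 arrays stood for a gene. The members had 113 probe sets, 29 members had more than 1, and 1 chosen probe set (Adam15) has a name that marks possible cross-hybridisation. Not used were 5 probe sets that name a member and another gene. All 64 symbols matched the RefSeq table. Sequences are from RefSeq, GRCm38.p6.

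Values as deposited were fitted in R 4.3.3 with limma 3.58.1 (4 group means, lmFit and eBayes, no block, residual degrees of freedom 8) with two-sided tests. Tables and figures were made with matplotlib 3.10.9, pandas 2.3.3 and numpy 2.4.6 under Python 3.11.15. In simulated arrays of 18194 genes for anti-EpCAM against untreated in SP cells, 62% of genes changed 2-fold and 95% of those changed 4-fold were recovered, with 9 false calls. The simulated arrays and genes were drawn independently of each other, unlike the real pairs, so these shares need not hold for the real arrays.

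Named are the Timps, the 15 other members with the highest mean, the 5 with the highest SD and, per comparison, the 3 highest and 3 lowest members by moderated t with a mean at or above the median of all genes and 1 of each among the rest. Members named in counts, and the low-signal members given by their means, were named after their values were seen. Of the 5 lists around the proteases, genes of the first alone are named; the marker lists are given by counts and summed linear signal on the log2 scale. The members and lists were chosen with earlier results of these data known.

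Replicate numbers were checked as pairs: the 2 fractions with the same number and treatment correlated in their deviations at 0.75, 0.62 and 0.56 after anti-EpCAM and at 0.66, 0.84 and 0.55 untreated, so these numbers pair the fractions, whereas anti-EpCAM and untreated arrays of one number correlated between -0.38 and -0.01. Alternatives were another scaling, a filter on low signals, the mean of all probe sets, a trended robust variance, replicate blocks, each array left out, and, chosen after seeing the data, both arrays of anti-EpCAM culture 2 left out, also with the block.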

Additional observations from a re-analysis of the deposited data

Results flagged for a closer look

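Mmp14 drew attention because SP minus non-SP of its chosen probe set was positive in all 3 anti-EpCAM cultures and negative in all 3 untreated cultures. Its interaction was 0.5572 log2 units, with an adjusted p of 1.00 in limma and of 0.767 with the culture as a replicate block, and over its leave-one-array-out fits it lay between 0.18 (without the non-SP array of anti-EpCAM culture 2) and 0.93 (without the non-SP array of anti-EpCAM culture 3). The other probe sets of Mmp14 did not share the pattern, being of mixed sign over the anti-EpCAM cultures. Their mean SP minus non-SP differences were -0.05 and 0.03 after anti-EpCAM and -0.09 and -0.29 in untreated cells. Timp4 drew attention for the opposite pattern, with an interaction of -0.2602 log2 units and adjusted p-values of 1.00 and 0.767. Its other probe set, with a mean of 3.45, gave an interaction of -0.23 and was also of mixed sign over the anti-EpCAM cultures. Neither Mmp14 nor Timp4 passed the test.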

How the results depend on the processing

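In all 5 comparisons 0 members passed the adjusted threshold under every alternative run; limma's counts at an unadjusted p under 0.05 are given in the report. The member medians moved by less than the within-group SD of the members' median signal per array (0.20) under all alternatives. Of 266 counts and medians recomputed, 212 were alike and 54 moved, and of 574 differences of single members 53 turned sign. The fraction is SP against non-SP and the antibody effect is anti-EpCAM against untreated. The median over all genes of the antibody effect in non-SP cells was 0.05 with arrays centred, against -0.10 as deposited.

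Members at an unadjusted p under 0.05 numbered 7 after anti-EpCAM and 3 untreated for the fraction, and 4 for the interaction, with the culture as a replicate block (main counts 0, 0 and 0), and 3 (fraction after anti-EpCAM) and 2 (interaction) when culture 2 was also left out. Centring the arrays gave 1 for the fraction after anti-EpCAM, and for the antibody effect 2 in SP (main 4) and 3 in non-SP cells (main 1), and a second quantile normalisation gave 1 for the fraction after anti-EpCAM and 2 for the antibody effect in SP cells. For the antibody effect, the filter on low signals left 0 in both fractions, which follows from its fewer genes. With the replicate number as replicate block it gave 2 in SP and 0 in non-SP cells, and in non-SP cells the mean of probe sets, the trended robust variance and the random replicate block each gave 0. The mean of probe sets gave 1 for the fraction after anti-EpCAM. The block changed no other call. Without one array at a time these counts lay between 0 and 2 (fraction after anti-EpCAM), 0 and 1 (untreated), 1 and 5 (antibody effect in SP cells), 0 and 2 (in non-SP cells) and 0 and 1 (interaction). Shares of all genes are given in the report for the main fit and the culture block only. The other counts are therefore not read as results about the members.

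Members without overlap between arrays numbered 1 for the fraction after anti-EpCAM, 2 untreated, 6 for the antibody effect in SP and 4 in non-SP cells. They were 0 untreated when centred; 0, 0, 0 and 1 in the filtered genes; and 3 (fraction after anti-EpCAM) and 1 (antibody effect in non-SP cells) with the mean of probe sets. Without culture 2 they were 5 (fraction after anti-EpCAM) and 16 (antibody effect in SP cells), from fewer arrays. Without one array they lay between 2 and 11, 3 and 9, 8 and 19, and 4 and 15. Fewer arrays also raise the share of all genes without overlap, which is not given for these alternatives. The counts are therefore not read as results about the members.

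Turned signs, the cause of which was not tested, were as follows. For the antibody effect in non-SP cells, centring gave 0.0645 for Mmp10 and 0.1267 for Timp2, and quantile normalisation 0.0796 and 0.0508; the mean of probe sets gave -0.1794 for Adamts9. That mean gave 0.0387 for Adamts9 in the fraction after anti-EpCAM, and for the interaction -0.1736 (Adam10), 0.2478 (Adamts4) and 0.0385 (Adamts10). Without culture 2 the fraction after anti-EpCAM was -0.1105 for Mmp19, -0.0116 for Adam9, 0.0276 for Adamts9 and 0.0152 for Adamts10, Mmp10 was at -0.4555 in the antibody effect in SP cells, and the interaction was -0.2982 (Mmp19), 0.0158 (Adamts4), 0.1108 (Adam19) and 0.1151 (Adamts10). Leaving out one array turned signs over these ranges. In the fraction of untreated cells they were -0.10 to 0.23 for Mmp11, -0.0123 to 0.36 for Adam19 and -0.62 to 0.0006 for Mmp14. After anti-EpCAM they were -0.30 to 0.0615 (Adamts9), -0.44 to 0.10 (Adamts10), -0.20 to 0.10 (Adam15) and -0.0189 to 0.40 (Adamts12). In the antibody effect they were -0.0475 to 0.10 (Adamts9), -0.68 to 0.66 (Mmp10) and -0.10 to 0.0626 (Timp2) in non-SP cells, and -0.0874 to 0.27 (Adamts9) and -0.47 to 0.84 (Mmp10) in SP cells. In the interaction they were -0.0789 to 0.34 (Mmp19), -0.30 to 0.12 (Adamts4), -0.38 to 0.17 (Adam19) and -0.34 to 0.20 (Adamts10).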
